A study of Homo sapiens with 12 samples.

Results

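The genes described here are 10 members of the fibroblast growth factor (FGF) system: the ligands FGF2, FGF8, FGF9 and FGF17, the receptors FGFR1, FGFR2 and FGFR3, and the Sprouty genes SPRY1, SPRY2 and SPRY4. They are 10 of the 58302 genes counted, found by their symbols, and they were selected on expression values of these same samples, so their levels and fold changes are given as a description without p-values, and counts of those past a threshold are printed beside the share of all genes with nothing read from them. RNA was sequenced from 12 samples of H1, a human embryonic stem cell line, after neural induction, 2 samples in each of 6 groups. WT cells and dKO cells, in which the catalytic sites of UTX (KDM6A) and JMJD3 (KDM6B) had been deleted, were profiled as neural progenitor cells (NPCs), as NPCs labelled P4 (passage 4) and as cells differentiated from NPCs for 28 days (D28). The labels give no passage for the first NPCs, which the study's text places at passage 2. The dKO line came from drug-selected clones, with UTX removed in cells that already lacked JMJD3, so a property of the clone and an effect of the deletions cannot be told apart. All NPCs were kept in medium with FGF2 and EGF, whereas D28 cells were grown without both and with GDNF, BDNF and cAMP, so that growth factor withdrawal and differentiation cannot be told apart either. Nothing in the labels says that the 2 samples of a group came from separate cultures, and their spread may be technical.

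FGFs are secreted proteins that bind, together with heparan sulfate chains, to tyrosine kinase receptors on the cell surface. The activated receptor signals through the adaptor FRS2 and the RAS, RAF, MEK and ERK cascade, and ERK induces genes that include the ETS factors ETV4 and ETV5. Sprouty proteins and the ERK phosphatase DUSP6 are also induced by the pathway and restrain it, which makes their RNA a common readout of FGF signalling. In the embryonic forebrain, FGF8 and FGF17 are made by the rostral patterning centre, FGFR1, FGFR2 and FGFR3 are receptors of neural progenitors, and FGF2 is the mitogen most used to expand NPCs in culture.

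Total counts ranged from 756942 to 10601172 per sample and were lowest in passage 2 NPCs, where 3 counts correspond to up to 3.92 CPM, against 0.302 CPM in the deepest D28 sample. CPM values are counts relative to the summed counts of the 13454 tested genes after TMM scaling. PCR copies were not marked by molecular identifiers, and such floors cover counting error only. Counts of the paired samples differed by a chi-square of 1.55 to 3.3 per degree of freedom in 5 groups and of 14.0 in dKO-D28, whose 2 samples stood apart. The fit gave each gene a single spread shared by all 6 groups. Standard errors and p-values of comparisons with dKO-D28 may therefore be too small. Values without either sample are given where leaving it out ended a call or moved a called fold change by over 1.5 times. Deletion of the catalytic sites left most of each targeted gene countable. KDM6A lay at 44.3 to 61.4 CPM in WT samples and at 27.7 to 59.4 CPM in dKO samples, and KDM6B at 117 to 205 and 146 to 188 CPM, so neither level checks the labels. The 7 neural progenitor markers (SOX2, SOX1, PAX6, NES, VIM, FABP7, HES5) summed to 5276 to 7520 CPM in NPCs and 3274 to 4517 CPM at D28, with HES5 at 0 in 5 of 12 samples. The 7 neuron markers (MAP2, TUBB3, DCX, STMN2, RBFOX3, SYT1, SNAP25) summed to 4116 and 4668 CPM in WT NPCs at passage 4, above the 3470 CPM of both WT-D28 samples and the 610 to 1302 CPM of all other samples. The 5 astrocyte markers (GFAP, S100B, AQP4, SLC1A3, ALDH1L1) summed to 1835 and 1992 CPM in the same WT NPCs, mostly from SLC1A3, to 301 and 306 CPM in WT-D28 and to 23.5 to 108 CPM elsewhere, with S100B and ALDH1L1 at 0 in 5 samples each. The 7 mesenchymal or neural crest markers (COL1A1, COL1A2, COL3A1, PDGFRB, TWIST1, FOXD3, TFAP2A) summed to 804 and 977 CPM in passage 2 dKO NPCs and 1710 and 1728 CPM in those of passage 4, against 142 to 366 CPM in WT NPCs, with FOXD3 at 0 in 9 samples. The 5 oligodendrocyte lineage markers summed to 6.16 to 38.9 CPM, and of the 4 pluripotency markers POU5F1 and NANOG were at 0 in all 12 samples, while LIN28A and DPPA4 were detected. The sum of the 4 was 90.5 to 131 CPM in NPCs of passage 2, 1.28 and 1.67 CPM in WT against 34.4 and 37.8 CPM in dKO NPCs of passage 4, and 0.604 and 0.96 CPM in WT-D28 and 46.3 and 86.3 CPM in dKO-D28. In dKO samples it came mostly from LIN28A, which is also active in early neural progenitors. In bulk RNA, fewer cells of a type and less RNA per cell cannot be told apart, and the part of these cell types in the results below was not tested.

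Upstream sequence could be read for 6 of the 10 genes (RefSeq starts, GRCh38.p14). Shown are the 250 bases before the annotated start of SPRY1, SPRY2 and FGFR3, which hold no annotated exon and represent the genes whose levels in dKO cells were higher (SPRY1, SPRY2) or lower (FGFR3). They are written 5′ to 3′ on the gene's strand, and capitals mark the letters CCGGAA (the core recognised by ETS factors) or GGGCGG (a GC box) on either strand.
SPRY1, chr4:123396545-123396794, + strand: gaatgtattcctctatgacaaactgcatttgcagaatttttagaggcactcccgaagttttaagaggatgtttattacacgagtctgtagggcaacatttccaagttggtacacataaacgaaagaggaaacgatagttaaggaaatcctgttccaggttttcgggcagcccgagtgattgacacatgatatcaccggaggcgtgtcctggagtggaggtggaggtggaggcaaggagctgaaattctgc
SPRY2, chr13:80341127-80341376, - strand: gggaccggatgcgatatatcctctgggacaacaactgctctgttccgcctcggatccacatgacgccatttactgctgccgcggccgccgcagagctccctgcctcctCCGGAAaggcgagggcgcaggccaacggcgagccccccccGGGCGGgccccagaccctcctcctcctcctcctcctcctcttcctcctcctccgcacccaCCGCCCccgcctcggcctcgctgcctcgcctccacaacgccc
FGFR3, chr4:1793043-1793292, + strand: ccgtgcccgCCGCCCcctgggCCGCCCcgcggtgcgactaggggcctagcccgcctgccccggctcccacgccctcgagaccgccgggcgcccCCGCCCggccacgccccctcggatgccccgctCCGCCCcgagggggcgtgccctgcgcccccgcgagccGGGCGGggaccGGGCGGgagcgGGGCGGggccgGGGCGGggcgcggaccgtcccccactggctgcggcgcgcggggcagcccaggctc
The SPRY1 stretch holds neither motif and 8 CpG dinucleotides. The SPRY2 stretch holds 1 ETS core, 2 GC boxes and 23 CpG dinucleotides. The FGFR3 stretch holds no ETS core, 8 GC boxes and 40 CpG dinucleotides, more than 97.8% of promoters. Of 35116 RefSeq promoter stretches of the same length, 14.5% hold CCGGAA and 42.6% hold GGGCGG, and the median has 11 CpG dinucleotides. Further listed starts of SPRY2 are not printed, nor are those of SPRY1, SPRY4, FGF2 and FGFR2 that overlap exons. A further SPRY1 start holds 1 ETS core, and those of SPRY4, FGF2 and FGFR2 hold none. Such matches describe letters only.

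Of the 10 genes, 3 passed the study's thresholds (a fold change above 2 at an unadjusted p below 0.05) between dKO and WT NPCs at passage 2, where 4.42% of all 13454 tested genes did. FGF8 was higher in dKO, and FGFR2 and FGFR3 were lower. At passage 4, 6 of the 10 genes passed, against 22.3% of all genes, with FGF8, SPRY1, SPRY2 and SPRY4 higher and FGFR2 and FGFR3 lower. At D28, 7 passed, against 24.2% of all genes, the same 6 and FGF17, which was higher in dKO-D28. Leaving out 1 sample took FGFR3 off the count at passage 2 (at the fold threshold without dKO sample 2), FGF8 off that at passage 4 (1.46 without WT sample 2, 1.35 without dKO sample 1), and SPRY2 and SPRY4 off that at D28 (0.81 and 0.77 without dKO sample 1). The median log2 fold change of the 10 genes, dKO over WT, was 0.34 at passage 2, 0.60 at passage 4 and 1.01 at D28, beside medians of 0.00, 0.02 and 0.00 over all tested genes. Both dKO samples lay above both WT samples of their stage for 24.8%, 39.9% and 38.1% of all tested genes. They lay below for 23.5%, 37.6% and 38.8%, so such separation was common and nothing is read from it below. All 10 genes passed the filter of a mean of 20 counts over the 12 samples, FGF8 and FGF17 in part through the groups where they are high.

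**Figure D1:**
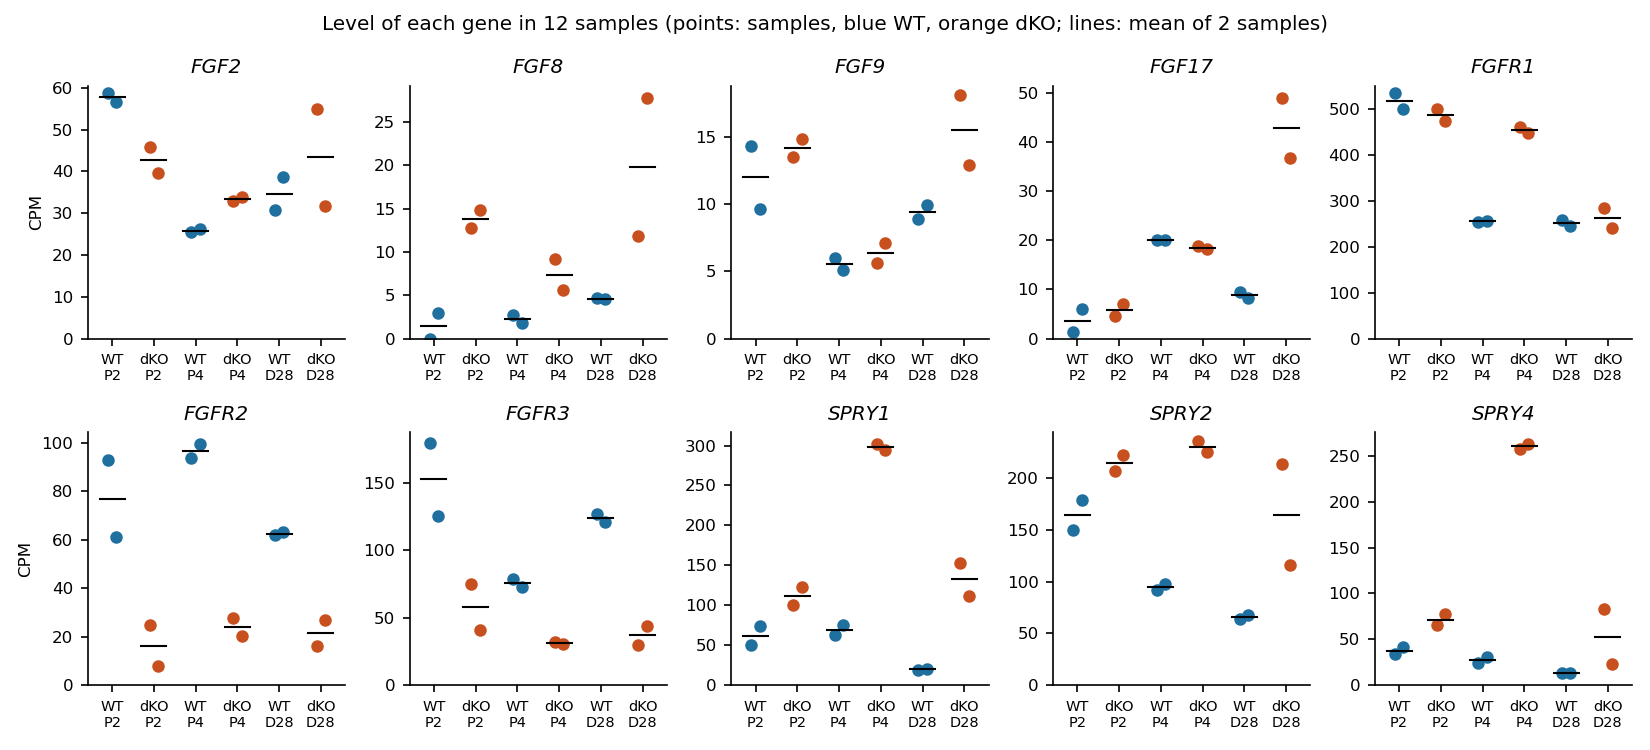
Level of each of the 10 genes (CPM, linear axes from 0) in the 12 samples, 2 per group, with P2 and P4 for passage and a line at each group mean. FGFR2 and FGFR3 sit lower in dKO (orange) than in WT (blue) at every stage and the 3 Sprouty genes sit higher, while dKO-D28 points lie far apart for FGF8, SPRY2 and SPRY4.

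**Figure D2:**
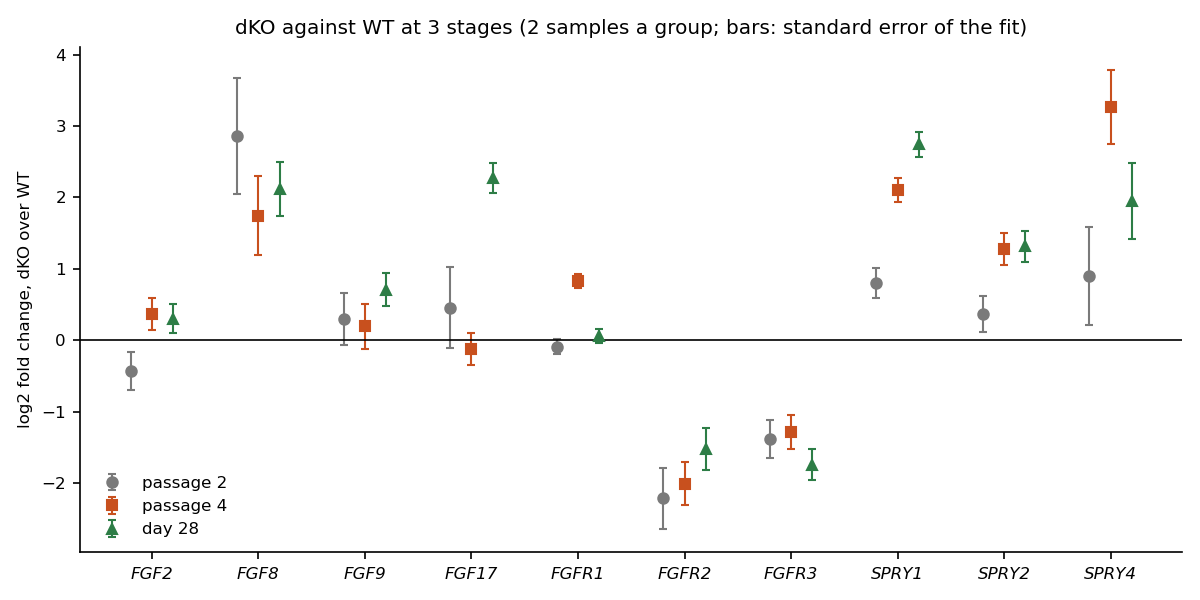
Log2 fold change of each gene, dKO over WT, at passage 2, passage 4 and day 28, with the standard error of the fit (2 samples per group). FGFR2 and FGFR3 lie below 0 at all 3 stages, SPRY1, SPRY2, SPRY4 and FGF8 above 0, and FGF17 departs from 0 by more than its error at day 28 alone.

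Among the ligands, FGF8 was the one whose dKO samples lay above all WT samples of the same stage at all 3 stages. How many of all genes do so at all 3 stages was not computed. FGF8 (ENSG00000107831; hg38 chromosome 10, 101770109 to 101780371, - strand) is a patterning ligand of the rostral forebrain and the midbrain-hindbrain boundary. WT NPCs at passage 2 had 0 and 4 counts of FGF8 (0 and 2.98 CPM), whereas dKO NPCs had 17 and 21 counts (12.8 and 14.9 CPM). This gave a ratio of summed counts of 7.29, which rests on 4 counts in 1 WT sample. The log2 fold change was 2.86 with a standard error of 0.81, and 2.20 without WT sample 1. Without WT sample 2 it was 8.87, which has no meaning as a size because WT sample 1 had 0 counts. At passage 4, FGF8 was at 2.67 and 1.80 CPM in WT against 9.14 and 5.64 CPM in dKO, a log2 fold change of 1.75 ± 0.56 (SE of the fit, 2 samples per group, as throughout). At D28 it was at 4.68 and 4.53 CPM in WT against 11.9 and 27.8 CPM in dKO, a log2 fold change of 2.12 ± 0.37, which was 2.58 without dKO-D28 sample 1 and 1.36 without sample 2. The D28 log2 fold change was 3.44 when GC content and length were equalized. The highest FGF8 level of any sample was in dKO-D28 sample 2.

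FGF17 (ENSG00000158815; chromosome 8, 22042398 to 22048809, + strand), a close relative of FGF8 made by the same patterning centres, followed another order. At passage 2 it was low in both genotypes, with 1 and 8 counts in WT and 6 and 10 counts in dKO (1.31 and 5.96 CPM against 4.50 and 7.07 CPM). At passage 4 it stood at 20.04 and 20.03 CPM in WT and at 18.7 and 18.1 CPM in dKO, a log2 fold change of -0.12 ± 0.23. FGF17 was thus higher at passage 4 than at passage 2 in both genotypes and nearly level between them in this fit. With GC content and length equalized and a replicate block, FGF17 had a log2 fold change of -0.68 at passage 4. At D28 it was at 9.36 and 8.25 CPM in WT against 49.0 and 36.7 CPM in dKO, a log2 fold change of 2.28 ± 0.21. The dKO-D28 samples held the highest FGF17 levels of the series, and each of them alone left a log2 fold change of at least 2.06.

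FGF2 (ENSG00000138685; chromosome 4, 122826682 to 122898236, + strand), which was also supplied as protein in the NPC medium, varied by at most 2.24-fold between group means. It stood at 58.7 and 56.6 CPM in WT against 45.8 and 39.6 CPM in dKO NPCs at passage 2. At passage 4 it was at 25.4 and 26.2 CPM in WT against 32.8 and 33.8 CPM in dKO. The dKO samples were thus below WT at passage 2 and above WT at passage 4, by log2 fold changes of -0.43 ± 0.27 and 0.37 ± 0.23. At D28, FGF2 was at 30.7 and 38.6 CPM in WT against 55.03 and 31.6 CPM in dKO, groups that overlapped, and the sign of the difference changed without dKO-D28 sample 1 (-0.14, against 0.66 without sample 2). FGF2 shares 804 exonic bases (11.8%) with NUDT6 on the opposite strand, and the strand setting of the counting was not given in the sources used here, so reads of the pair may be mixed. FGF9 (ENSG00000102678; chromosome 13, 21671073 to 21704498, + strand), a ligand made by neurons and glia, lay between 5.14 and 18.2 CPM in all samples. Its WT and dKO samples overlapped at both passages, and at D28 the WT samples (8.88 and 9.96 CPM) were below the dKO samples (18.2 and 12.9 CPM). In both genotypes FGF9 was lower at passage 4 than at passage 2, by log2 fold changes of -1.05 ± 0.37 in WT and -1.16 ± 0.32 in dKO.

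The receptors were described by lower FGFR2 and FGFR3 in every dKO group and by an FGFR1 level that depended on passage and stage. FGFR2 (ENSG00000066468; chromosome 10, 121478332 to 121598458, - strand) was at 92.7 and 61.1 CPM in WT against 24.8 and 7.78 CPM in dKO NPCs at passage 2. It was at 93.9 and 99.7 CPM in WT against 27.9 and 20.4 CPM in dKO NPCs at passage 4. At D28 it was at 61.8 and 63.0 CPM in WT against 16.2 and 26.8 CPM in dKO. Every dKO sample was below every WT sample of the series, and the dKO groups overlapped one another. The share of all genes separated in this way over the series was not computed, so nothing is read from it. The log2 fold changes were -2.21 ± 0.43, -2.002 ± 0.30 and -1.52 ± 0.29 at passage 2, passage 4 and D28. The passage 2 value was -3.26 without dKO sample 1 and -1.59 without dKO sample 2. The D28 value was -1.94 to -1.22 when single samples were left out. The passage 4 value was -1.38 when GC content and length were equalized.

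FGFR3 (ENSG00000068078; chromosome 4, 1793293 to 1808872, + strand), a receptor known as a marker of radial glia and astrocytes, was at 180 and 126 CPM in WT against 75.1 and 41.0 CPM in dKO NPCs at passage 2. At passage 4 it was at 78.5 and 73.2 CPM in WT against 31.9 and 30.4 CPM in dKO, and at D28 at 127 and 121 CPM in WT against 30.1 and 43.8 CPM in dKO. The genotypes were apart within each stage, but dKO NPCs at passage 2 overlapped WT NPCs at passage 4. The log2 fold changes were -1.38 ± 0.26, -1.28 ± 0.24 and -1.74 ± 0.22, the last between -2.04 and -1.50 when single samples were left out. The astrocyte marker sum was lower in dKO than in WT samples at every stage too, with 108 and 86.5 CPM for WT against 38.3 and 24.8 CPM for dKO at passage 2, 1835 and 1992 against 28.1 and 35.6 CPM at passage 4, and 301 and 306 against 25.2 and 23.5 CPM at D28. At passage 2 the sum came mostly from SLC1A3, at 106 and 82.7 CPM in WT against 34.5 and 17.7 CPM in dKO. On few counts, GFAP was higher in dKO there, at 3.75 and 7.07 CPM against 2.61 and 2.98 CPM. Within WT, the sum was highest at passage 4, where FGFR3 was lowest. The part of astrocyte marker expression in the FGFR3 difference was not tested.

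FGFR1 (ENSG00000077782; chromosome 8, 38400215 to 38468834, - strand) was at 535 and 500 CPM in WT against 499 and 474 CPM in dKO NPCs at passage 2, with a log2 fold change of -0.09 ± 0.11. At passage 4 it was at 254 and 256 CPM in WT against 460 and 447 CPM in dKO, a log2 fold change of 0.83 ± 0.10. At D28 it was at 258 and 245 CPM in WT against 284 and 241 CPM in dKO, and the groups overlapped. FGFR1 was thus about as low in WT NPCs at passage 4 as in D28 cells of either genotype, and dKO NPCs at passage 4 stayed near the passage 2 level. The neuron markers were at 787 and 818 CPM in those dKO NPCs and at 4116 and 4668 CPM in the WT NPCs, and their part in the FGFR1 difference was not tested. FGFR1 shares 2.25% of its exonic bases with an unnamed gene and 0.802% with LETM2.

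Per kilobase of annotated exons, the make-up of the receptor RNA differed between the genotypes. FGFR1 made up 41.9% and 49.3% of the summed FGFR1 to FGFR4 level (CPM per kb) in WT NPCs at passage 2, against 62.7% and 74.1% in dKO NPCs. At passage 4 these shares of FGFR1 were 40.6% and 41.8% in WT and 75.5% and 76.1% in dKO, and at D28 32.4% and 32.0% in WT and 67.1% and 56.1% in dKO. FGFR3 held the largest or second largest share in every sample, with 42.4% to 56.6% in WT and 18.4% to 36.2% in dKO. FGFR4, which was not among the selected genes, held 0.9% to 4.29%. The summed receptor level at passage 2 was 74.3 and 58.9 CPM per kb in WT NPCs, against 46.3 and 37.15 CPM per kb in dKO NPCs. At passage 4 it was 35.6 and 36.4 CPM per kb in WT NPCs, against 34.2 and 35.4 CPM per kb in dKO NPCs. In passage 4 NPCs alone the make-up thus differed at nearly the same sum, while at D28 the sum was 44.5 and 46.3 in WT and 24.7 and 25.0 in dKO. The exonic length of 18813 bases for FGFR2 and 17201 bases for FGFR1 joins all isoforms, so their level per kilobase depends on this length, and isoforms with different ligand specificity were not separated by the counts.

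**Figure D3:**
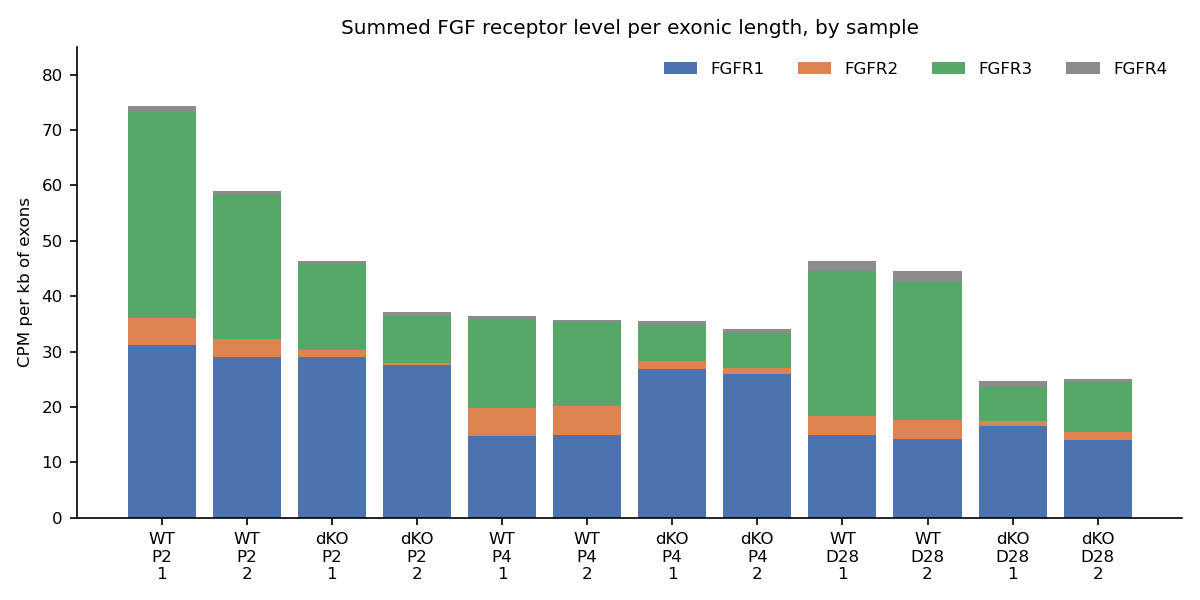
Summed level of FGFR1, FGFR2, FGFR3 and FGFR4 in each of the 12 samples, in CPM per kb of annotated exons, stacked by gene. FGFR1 is 32.0% to 49.3% of each WT bar and 56.1% to 76.1% of each dKO bar.

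The Sprouty genes were higher in dKO than in WT samples at each stage, and all 3 had their highest mean level in dKO NPCs at passage 4. SPRY1 (ENSG00000164056; chromosome 4, 123396795 to 123403760, + strand), an inhibitor of receptor signalling to ERK, was at 49.6 and 73.8 CPM in WT against 101 and 122 CPM in dKO NPCs at passage 2. At passage 4 it was at 63.1 and 75.3 CPM in WT against 302 and 295 CPM in dKO. At D28 it was at 18.6 and 20.6 CPM in WT against 153 and 112 CPM in dKO. Every dKO sample exceeded every WT sample of the series, for which no share of all genes was computed. The log2 fold changes were 0.81 ± 0.21, 2.10 ± 0.17 and 2.75 ± 0.17 in the order of stages, the last between 2.50 and 2.96 when single samples were left out. In WT cells SPRY1 was lower at D28 than in NPCs of either passage, and the WT samples of the 2 passages overlapped.

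SPRY2 (ENSG00000136158; chromosome 13, 80335976 to 80341126, - strand), the member best known in the regulation of receptor turnover, was at 150 and 179 CPM in WT against 207 and 223 CPM in dKO NPCs at passage 2. It was at 92.2 and 97.3 CPM in WT against 236 and 226 CPM in dKO NPCs at passage 4, and at 63.6 and 68.0 CPM in WT-D28 and 214 and 116 CPM in dKO-D28. SPRY2 was lower at passage 4 and at D28 than at passage 2 in WT cells, whereas the dKO groups stayed within 116 to 236 CPM. The log2 fold changes between genotypes were 0.37 ± 0.25, 1.28 ± 0.23 and 1.32 ± 0.22. The D28 value was 0.81 without dKO-D28 sample 1 and 1.70 without sample 2. The passage 4 value was 0.94, below the fold threshold, when GC content and length were equalized with a replicate block.

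SPRY4 (ENSG00000187678; chromosome 5, 142310427 to 142326455, - strand) had a range of 19.4-fold between its highest and lowest group mean of CPM. On the log2 scale with a prior count its range was 4.25, below the 4.35 of FGF8. It was at 33.9 and 41.0 CPM in WT against 65.3 and 77.1 CPM in dKO NPCs at passage 2. At passage 4 it was at 23.7 and 30.0 CPM in WT against 258 and 263 CPM in dKO, a log2 fold change of 3.26 ± 0.52. At D28 it was at 13.6 and 13.3 CPM in WT against 82.9 and 23.0 CPM in dKO. The dKO-D28 samples differed 3.61-fold from each other, the largest ratio of the 10 genes in this group, and the log2 fold change of 1.95 ± 0.53 fell to 0.77 without sample 1 and was 2.63 without sample 2. Sample 2 lay just below the WT NPCs at passage 4, whereas sample 1 exceeded both dKO NPC samples of passage 2. Per kilobase of exons, SPRY2 was the highest of the 3 Sprouty genes in all groups but dKO NPCs at passage 4, where SPRY1 reached 75.3 and SPRY2 71.8 CPM per kb.

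Between stages, 4 of the 10 genes passed the thresholds from WT NPCs to WT-D28 cells, against 24.4% of all genes, with FGF17 higher and FGFR1, SPRY1 and SPRY2 lower at D28. From dKO NPCs to dKO-D28 cells 1 of 10 passed, FGF17, against 7.14% of all genes. From passage 2 to passage 4, 4 passed in WT NPCs, against 19.8% of all genes, with FGF17 higher and FGF2, FGF9 and FGFR1 lower. In dKO NPCs 4 passed, against 9.83%, with FGF17, SPRY1 and SPRY4 higher and FGF9 lower. These comparisons share their passage 2 samples with one another. Several of these genes lay near the fold threshold and were no longer past it when 1 sample was left out. For WT differentiation these were FGF17 (1.05, against 0.56 without WT NPC sample 1 and 0.96 without WT-D28 sample 1) and FGFR1 (-0.99 without WT NPC sample 1), and FGF17 was at 2.72 without WT NPC sample 2. For passage they were FGF9 in WT (-0.81 without sample 1 of passage 2, -0.94 without sample 2 of passage 4), FGF9 in dKO (-0.99 without sample 1 of passage 4) and FGFR1 in WT (-0.97 without sample 1 of passage 2). FGF17 in WT stayed past it, at 2.235 for passage and 3.91 without sample 2 of passage 2. The change of SPRY4 from passage 2 to passage 4 had a log2 fold change of -0.49 ± 0.70 in WT and 1.87 ± 0.51 in dKO NPCs, and that of SPRY1 was 0.12 ± 0.21 in WT and 1.42 ± 0.17 in dKO. For the difference between genotypes in the change to D28, 2 of the 10 genes passed (FGF17 and SPRY1), against 23.2% of all genes, and for that in the change to passage 4, 2 passed (SPRY1 and SPRY4), against 19.3%. The value of FGF17 was 1.82 and fell to 0.14 without WT NPC sample 2, that of SPRY1 for passage was 1.297 and 0.94 without the same sample, and SPRY4 (2.36) was no longer past the thresholds in 7 of the fits that left out 1 sample, at 2.19 to 2.56.

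The other genes of the pathway come from a list made by function and not by how they moved, though with earlier results of these data known. Of 96 listed, 74 passed the count filter, and these were tested with the quasi-likelihood test of edgeR and adjusted by Benjamini-Hochberg over all 13454 genes. Between dKO and WT NPCs they were called in 7 cases at passage 2 (6 higher, 1 lower in dKO), or 9.46% against 4.42% of all genes, and in 25 cases at passage 4 (19 higher, 6 lower), or 33.8% against 22.3%. At D28, 27 were called (17 higher, 10 lower), or 36.5% against 24.2%. The median log2 fold change of the 74 genes was 0.03, 0.17 and 0.06 at the 3 stages, close to that of all genes.

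**Figure D4:**
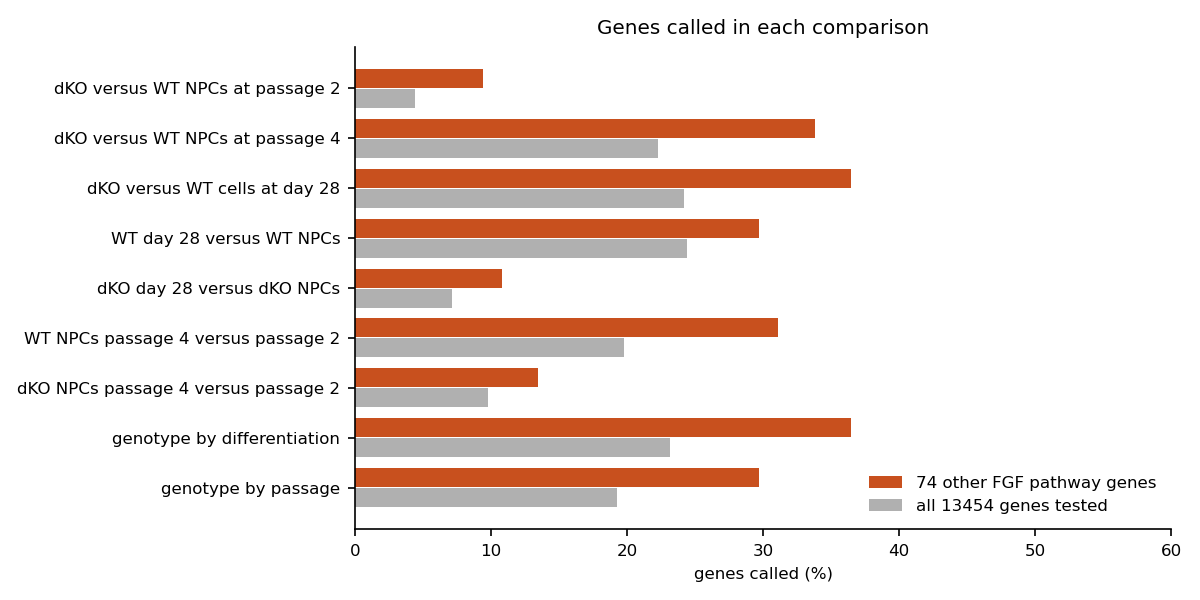
Share of genes called (percent; fold change above 2 at an unadjusted p below 0.05) among the 74 tested pathway genes other than the 10 described (orange) and among all 13454 tested genes (grey), for 9 comparisons. The shares range from 9.46% to 36.5% for the pathway genes and from 4.42% to 24.4% for all genes.

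DUSP6 and IL17RD, which FGF signalling also induces and which restrain it, were higher in dKO cells. DUSP6, the cytosolic phosphatase of ERK, was at 45.7 and 82.7 CPM in WT against 207 and 238 CPM in dKO NPCs at passage 2, and at 100 and 103 against 512 and 498 CPM at passage 4. It rose at all 3 stages, by a log2 fold change of 1.72 ± 0.24 at passage 2 (edgeR adjusted p = 0.00254), 2.31 ± 0.19 at passage 4 (adjusted p = 7.35e-07) and 1.69 ± 0.19 at D28 (adjusted p = 7.44e-06), and these calls held in all alternatives run. IL17RD, also called Sef, a membrane inhibitor of FGF receptor signalling, rose by 1.47 ± 0.30 at passage 4 (adjusted p = 0.00437) and 2.67 ± 0.31 at D28 (adjusted p = 0.00016). At passage 2 its log2 fold change was 1.20 ± 0.32 with an edgeR adjusted p of 0.118, so that it passed the unadjusted threshold alone, and that call was lost without WT sample 1. SPRED1, a relative of the Sprouty genes, had log2 fold changes of 0.03, 0.79 and 0.21 at the 3 stages and was not called at any. In all, 2 of 10 tested feedback inhibitors were called at passage 2, both higher in dKO (beside 4.42% of all genes), 4 of 10 at passage 4 (40.0%, beside 22.3%), all higher (DUSP4, DUSP6, SPRED3 and IL17RD), and 4 of 10 at D28 (beside 24.2%), of which SPRED3 was lower.

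The targets ETV4 and ETV5 were higher in dKO cells at passage 4 and D28. ETV4 was at 8.69 and 11.3 CPM in WT against 106 and 103 CPM in dKO NPCs at passage 4, and at 5.76 and 4.73 CPM in WT-D28 and 86.1 and 41.1 CPM in dKO-D28. These were log2 fold changes of 3.37 ± 0.32 (edgeR adjusted p = 6.72e-06) and 3.59 ± 0.31 (adjusted p = 2.1e-06), the latter 2.97 without dKO-D28 sample 1. ETV5 rose by 2.28 ± 0.16 at passage 4 (adjusted p = 7.77e-09) and by 2.51 ± 0.16 at D28 (adjusted p = 2.53e-09). At passage 2, ETV5 had a log2 fold change of 0.30 ± 0.18 and was not called, and ETV4 was at the fold threshold, 1.00 ± 0.34 with an edgeR adjusted p of 0.179, a call lost in 10 of 19 alternatives. Of 11 tested targets, 2 were called at passage 2 (18.2%, beside 4.42% of all genes; ETV4 higher and EGR1 lower in dKO), 7 at passage 4 (63.6%, beside 22.3%; 6 higher, ETV1 lower) and 5 at D28 (45.5%, beside 24.2%), all higher. Among the 6 higher at passage 4 were the cell cycle gene CCND1, at a log2 fold change of 2.37, and the immediate early genes FOS (1.76) and JUNB (1.92). EGR1, another immediate early gene, was lower in dKO NPCs at passage 2, by -1.22 ± 0.21 (edgeR adjusted p = 0.0103), a call lost without dKO NPC sample 2.

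**Figure D5:**
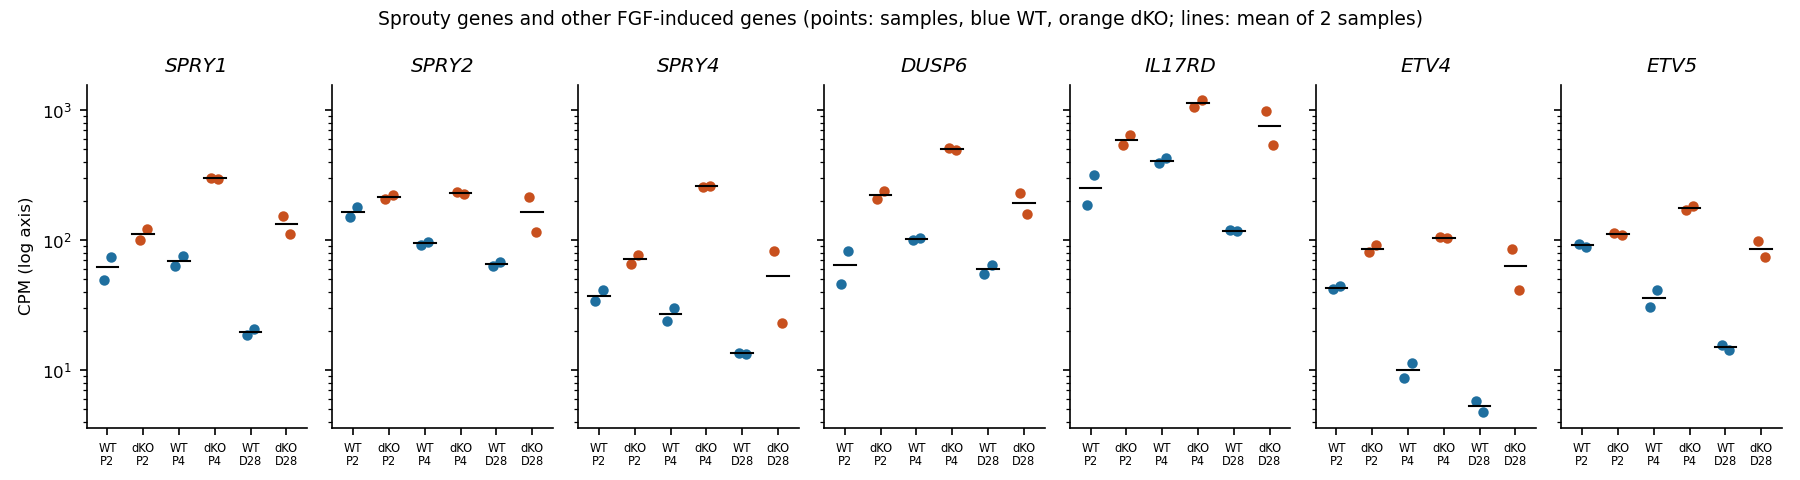
Level in CPM (log axis) of the 3 Sprouty genes and of DUSP6, IL17RD, ETV4 and ETV5 in the 12 samples, with a line at each group mean. At passage 4 and day 28 every dKO point (orange) lies above every WT point (blue) of that stage for all 7 genes. The same holds for 39.9% of all tested genes at passage 4 and for 38.1% at day 28.

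Heparan sulfate proteins and enzymes shape the binding of FGF to its receptor. At passage 4, 8 of 18 tested genes of this group were called (44.4%, beside 22.3% of all genes), 7 of them higher in dKO. SDC4, a membrane-spanning syndecan, was at 1.34 and 5.65 CPM in WT against 51.8 and 40.2 CPM in dKO, which gave a log2 fold change of 3.61 ± 0.32 (edgeR adjusted p = 2.14e-07; 3.02 without WT sample 1 and 5.07 without WT sample 2). SULF2, a sulfatase that trims heparan sulfate outside the cell, rose by 2.77 ± 0.12 (adjusted p = 6.53e-11) and the glypican GPC3 by 2.54 ± 0.16 (adjusted p = 2.11e-09). At D28, 8 of 18 were called (beside 24.2% of all genes), 5 higher and 3 lower, led by SDC4 (3.88 ± 0.26, adjusted p = 8.86e-09) and SDC1 (2.72 ± 0.26, adjusted p = 2.81e-06). At passage 2, 2 of 18 were called, both higher: SULF1 (1.19 ± 0.22, edgeR adjusted p = 0.01) and SDC2 (1.10 ± 0.18, adjusted p = 0.00347), or 11.1% beside 4.42% of all genes. Both calls were lost without WT sample 1 (0.81 and 0.85), and that of SDC2 also without dKO sample 2 (0.96), while SULF1 was at 1.98 without WT sample 2. Collagen-led mesenchymal markers were also higher in dKO NPCs, as given above, and their part was not tested. Of 24 tested transducers, which carry the signal inside the cell, 0 were called by edgeR at passage 2 (2 had an unadjusted p below 0.05, and DESeq2 called 0), 2 at passage 4 (GAB1 lower, by -1.65 ± 0.17 with adjusted p = 7.06e-07, and SHC1 higher) and 1 at D28 (FRS3 lower, by -1.97 ± 0.19 with adjusted p = 2.76e-07). These were 0%, 8.33% and 4.17%, beside 4.42%, 22.3% and 24.2% of all genes. With no fold threshold, 15 of the 24 had an unadjusted p below 0.05 at passage 4 and 16 at D28. The share of all genes past that p alone was not computed, so nothing is read from these counts.

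Of the other ligands, 2 of 14 passed the count filter, FGF19 in part through its high groups and FGF18 through dKO NPCs at passage 4 and dKO-D28. FGF19, an endocrine FGF that is also made in the embryonic neural tube, had 5 and 24 counts in WT and 59 and 86 counts in dKO NPCs at passage 2, a log2 fold change of 1.96 ± 0.45 (edgeR adjusted p = 0.0442; 3.01 without WT sample 2). At D28 the direction was the opposite, with 64.9 and 64.7 CPM in WT against 21.6 and 9.46 CPM in dKO, a log2 fold change of -2.09 ± 0.30 (edgeR adjusted p = 9.79e-05; -2.78 without dKO-D28 sample 1). FGF18 had 6 counts in each WT-D28 sample and 50 and 51 counts in dKO-D28, a log2 fold change of 3.99 ± 0.40. Among intracellular FGF homologous factors, which bind sodium channels in neurons and are not secreted, FGF14 was at 129 and 130 CPM in WT-D28 and at 1.94 and 1.16 CPM in dKO-D28, a log2 fold change of -6.39 ± 0.27. FGF14 passed the count filter through WT-D28, where it had 2364 counts. For FGF14 and FGF18, comparisons with these high groups are therefore given as a description without p-values, though both genes remain in the counts of called genes. FGF13 fell in dKO by 2.01 ± 0.15 at passage 4 (adjusted p = 2.06e-08). At both stages the neuron markers were lower in dKO too (787 and 818 CPM at passage 4, 610 and 1058 CPM at D28), and their part was not tested. FLRT1, a membrane protein that binds FGF receptors, was lower in dKO at passage 4 (-1.29 ± 0.26, edgeR adjusted p = 0.000578) and at D28 (-1.85 ± 0.22, adjusted p = 2.09e-06). It was the 1 of 6 tested receptors and co-receptors called at passage 4 (16.7%, beside 22.3% of all genes). At D28, 5 of 6 were called (83.3%, beside 24.2%), 3 higher and 2 lower in dKO. FGFRL1, a receptor without a kinase domain, had log2 fold changes of 0.03, 0.05 and 0.17 and was not called at any stage.

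In WT cells called targets were lower at D28 than in NPCs (4 of 11 tested) and, with PHLDA1 as the exception, lower at passage 4 than at passage 2 (9 of 11). From WT NPCs to WT-D28, 22 of 74 pathway genes were called (8 higher, 14 lower), or 29.7% against 24.4% of all genes. ETV4 fell by 3.04 ± 0.40 (edgeR adjusted p = 9.32e-05), ETV5 by 2.60 ± 0.18 (adjusted p = 1.98e-08), MYC by 2.46 ± 0.31 (adjusted p = 9.76e-06) and SDC4 by 3.4 ± 0.33 (adjusted p = 9.55e-07), all on the log2 scale. FGF14 rose from 3 counts in both WT NPC samples together to 2364 in WT-D28, a ratio of 90.9 with an exact Poisson interval of 31.1 to 441, and FLRT1, FGF19 and FRS3 rose by 2.43 ± 0.33, 2.26 ± 0.41 and 1.81 ± 0.26, with edgeR adjusted p of 1.75e-05, 0.000858 and 3.62e-05 (FGF19 3.31 without WT NPC sample 2). DUSP6 was not called, at a log2 fold change of -0.17 ± 0.24. From passage 2 to passage 4 in WT NPCs, both kept with FGF2, 23 of 74 were called (5 higher, 18 lower), or 31.1% against 19.8%, and PHLDA1 was the 1 target that was higher. EGR1 fell by 3.41 ± 0.22 (edgeR adjusted p = 6.31e-07), FOS by 3.37 ± 0.29 (adjusted p = 2.11e-05) and EGR2 by 4.78 ± 0.98 (adjusted p = 0.00481). EGR3 went from 68 counts in both samples together to 2, a ratio of 111 with an exact Poisson interval of 29.6 to 936, and its call was lost without sample 2 of passage 4. GAB1, FGF14, FGF12 and FLRT1 rose, by 2.13 ± 0.22, 2.39 ± 0.63, 2.15 ± 0.50 and 1.44 ± 0.36, with edgeR adjusted p of 1.57e-06, 0.00708, 0.00304 and 0.00541. The rise of FGF14 starts from the same 3 counts at passage 2 and has no meaning as a size. The fold change of GAB1 was 2.73 without sample 2 of passage 2, that of FGF14 1.70 without sample 2 of passage 4, and that of EGR2 -6.44 and -3.87 without samples 1 and 2 of passage 4, all on the log2 scale. The neuron and astrocyte marker sums rose over the same step, from 1146 and 1302 to 4116 and 4668 CPM and from 86.5 and 108 to 1835 and 1992 CPM, and their part was not tested.

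In dKO cells, 8 of the 74 genes were called from NPCs to D28 (2 higher, 6 lower), or 10.8% against 7.14% of all genes. FGF18, which passed the count filter through its high groups, and FOS rose, by 1.90 ± 0.49 and 1.87 ± 0.26 (edgeR adjusted p = 0.00169 for FOS). PHLDA1, SDC2, MYC and FGF19 fell, by 1.66 ± 0.12, 1.29 ± 0.16, 1.297 ± 0.27 and 1.80 ± 0.35 (edgeR adjusted p = 4.05e-07, 7.55e-05, 0.00473 and 0.00626). The call of MYC was lost without dKO-D28 sample 1 (-0.92, against -1.89 without sample 2), and FGF19 was at -2.48 without sample 1. ETV4, ETV5 and DUSP6 were not called, at log2 fold changes of -0.45 ± 0.28, -0.38 ± 0.16 and -0.20 ± 0.19 (for ETV4, -1.07 to -0.003 over the alternatives). The D28 medium lacked FGF2 and EGF and held GDNF, BDNF and cAMP, and the part of the medium was not tested. From passage 2 to passage 4, 10 of 74 were called in dKO NPCs (5 higher, 5 lower), or 13.5% against 9.83%. DUSP6 rose by 1.18 ± 0.19 (edgeR adjusted p = 0.000937), SULF2 by 1.18 ± 0.12 (adjusted p = 5.51e-06), ANOS1 by 1.65 ± 0.18 (adjusted p = 1.21e-05), FGF12 by 1.27 ± 0.40 (adjusted p = 0.0349; lost without dKO NPC sample 2 at 0.71, and 2.11 without sample 1) and FGF18 by 2.60 ± 0.46. FGF19 fell by 2.71 ± 0.38 (edgeR adjusted p = 0.000506), EGR1 by 1.76 ± 0.21 (adjusted p = 0.000215) and FGF13 by 1.39 ± 0.17 (adjusted p = 4.58e-05).

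The difference between the genotypes in these changes was tested directly. For the change from NPCs to D28, 27 of 74 pathway genes were called (15 with a higher and 12 with a lower change in dKO), or 36.5% against 23.2% of all genes, and for the change from passage 2 to passage 4, 22 were called (16 higher, 6 lower), or 29.7% against 19.3%. ETV4 and ETV5 were among those higher in both, by 2.59 ± 0.48 and 2.21 ± 0.24 for differentiation (edgeR adjusted p = 0.00193 and 4.37e-06; ETV4 1.97 without dKO-D28 sample 1) and by 2.37 ± 0.49 and 1.98 ± 0.24 for passage (edgeR adjusted p = 0.00523 and 1.99e-05). DUSP6 was in neither, at -0.03 ± 0.30 and 0.59 ± 0.30. Its difference between dKO and WT at passage 2 was thus not shown to differ from that at passage 4 or D28. The 2 tests share the passage 2 samples.

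The genes whose profile over the 12 samples was most like that of the widest-ranging ligand, receptor and Sprouty gene were found by Pearson's r of log2 CPM among all tested genes, as a description. For SPRY4 these were ADA (r = 0.969), CDH18 (0.958), PRCP (0.958), GADD45A (0.945) and CHD9NB (0.945). For FGFR2 they were PCDHGB7 (r = 0.945), an unnamed gene (ENSG00000259948, 0.944), ABHD17C (0.938), AKAP11 (0.927) and MRPL40 (0.926). For FGF8 they were CTSH (r = 0.941), MBD2 (0.935), an unnamed gene (ENSG00000270094, 0.922), SEC24C (0.906) and XKR8 (0.905). The 12 samples form 6 groups of 2 and differ in depth, and each gene was the best of 13454, so such values are high by selection.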

How the data were processed

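Libraries were made from TRIzol-extracted total RNA of 12 samples with the TruSeq RNA kit. The authors aligned reads to hg38 (HISAT2 2.0.4), sorted them with SAMtools 1.3.1 and counted them per Ensembl gene with HTSeq 0.6.0, and they deposited the raw counts without normalization or filtering. Their DESeq 1.18.1 test and their correction for GC content and gene length are not part of these counts. Samples were grouped by their labels. Of 58302 gene IDs, 57532 were found in GENCODE v44, which gave symbols, positions and exonic length. Total counts ranged from 756942 to 10601172 per sample, which limits the precision most at passage 2.

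In R 4.3.3, the 13454 genes averaging 20 counts or more per sample were normalized with TMM and fitted as 6 group means with edgeR 4.0.16 (robust quasi-likelihood test). A call required a fold change above 2 at an unadjusted p below 0.05, as in the study, and p-values were also adjusted by Benjamini-Hochberg over all tested genes. With 2 samples per group, an exact permutation test of a single value cannot go below p = 0.333. The fit was tested on simulated data with the same spread in all groups and changes planted in dKO NPCs at passage 4. That test does not cover the wider spread of dKO-D28. The 10 genes, the list of 96 pathway genes and the marker lists were chosen with earlier results of these data known. Named genes are the 10 members, DUSP6, ETV4, ETV5, SPRED1, IL17RD, FGFRL1 and, per comparison, up to 4 higher and 4 lower called pathway genes with an adjusted p below 0.05 and the largest fold changes, and, as role counts required it, other called genes of a group, chosen after their values were seen. Genes most like a member had the highest Pearson's r of log2 CPM (prior count 1). Alternatives were adjusted p-values, DESeq2 1.42.0, a fit of the samples compared alone, looser and stricter count filters (1 count in any sample, 10 in all), equalization over 10 bins of GC content and 10 of length, a replicate block, and leaving out each sample.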

Additional observations from a re-analysis of the deposited data

Results flagged for a closer look

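Of the 27 and 22 pathway genes whose change with differentiation or passage differed between dKO and WT cells, by the test of the difference itself in edgeR, 32 results of the named genes are listed. Values are the change in dKO minus that in WT, on the log2 scale, with 2 samples per group. For NPCs to D28, the difference was above 0 for the ETS factors ETV4 (2.59) and ETV5 (2.21), the immediate early gene FOS (1.62), MYC (1.16), the FGF receptor inhibitor IL17RD (1.47), the syndecans SDC1 (2.42) and SDC4 (3.39) and the extracellular FGFR1 ligand anosmin, ANOS1 (2.07). It was below 0 for FGF19 (-4.05), the homologous factors FGF13 (-1.24) and FGF14 (-7.99), FLRT1 (-1.68), SDC2 (-1.71), SDC3 (-1.69), SULF1 (-1.32), FRS3 (-1.59) and PHLDA1 (-1.01). The value of FGF14 rests on 3 counts in WT NPCs and has no meaning as a size. That of IL17RD was no longer called without dKO-D28 sample 1. Without single samples, FGF19 reached -5.10 and -4.72 (without WT NPC sample 2 and dKO-D28 sample 1).

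For passage 2 to passage 4, the difference was above 0 for ETV4 (2.37), ETV5 (1.98), EGR1 (1.65), FOS (2.58), JUNB (2.39), ANOS1 (1.15), GPC3 (1.99), SDC1 (1.52), SDC4 (3.11) and SULF2 (2.0). It was below 0 for FGF19 (-2.78), FGF13 (-1.51), FGF14 (-3.4), GAB1 (-1.88) and PHLDA1 (-1.78). The value of FGF14 again rests on 3 counts in WT NPCs and has no meaning as a size. Without WT NPC sample 2, FGF19 was at -3.83 and GAB1 at -2.49, without sample 2 of WT passage 4 FGF14 was at -2.70, and SDC4 was at 2.52 and 4.58 without samples 1 and 2 of WT passage 4.

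Among the 10 selected genes, all dKO samples of FGF2 and of FGFR1 lay below WT at passage 2 and above WT at passage 4, with a difference between the log2 fold changes of 0.799 for FGF2 and 0.92 for FGFR1. Of all tested genes, 23.5% lay below at passage 2 and 39.9% above at passage 4. For FGFR1 at passage 2 the nearest samples were at 500 CPM in WT and 499 CPM in dKO, with a log2 fold change of -0.09 ± 0.11. From passage 2 to passage 4, all samples of SPRY2 and of SPRY4 went down in WT and up in dKO NPCs, with differences of 0.91 and 2.36. Over the same step, all samples went down in WT for 33.8% and up in dKO for 32.3% of all tested genes. The differences of the 4 selected genes are given as a description with no p, because the genes were selected on the same samples.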

How the results depend on the processing

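Of 1672 recomputed values of the 10 selected genes, 1514 moved by less than the spread between replicates, 158 moved more, and 0 of the called ones changed sign. Calls of pathway genes between dKO and WT NPCs at passage 2, the shallowest samples, depended on single samples: 7 were called, and 3 to 11 when samples were left out in turn (3 without WT sample 1, 11 without WT sample 2, 4 without dKO sample 2). Between dKO NPCs and dKO-D28 cells, 8 were called, and 14 when a gene needed just 1 count in a single sample. Between passages in dKO NPCs, 10 were called, and 6 when 10 counts were required of all samples. Both filters change which genes are tested. The other counts stayed within 1.5 times under all alternatives. Where a sample was left out, the remaining sample of its group was assumed to vary like the other groups.

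The share of all genes called moved by more than 1.5 times under some settings: at passage 2 from 4.42% to 1.48% with adjusted p-values, 2.0% with 10 counts required of all samples and 6.89% without WT sample 2, and the filter of 1 count gave 14.7% at passage 4 (22.3% with the filter used), 16.0% for WT differentiation, 12.8% for WT passage and 12.2% and 10.4% for the differences between genotypes in differentiation and passage. The stricter filter gave 3.51% for dKO differentiation and 5.9% for dKO passage. Deviations of same-numbered samples correlated by 0.018 on average (-0.058 to 0.194 over 15 pairs of groups). Between WT and dKO samples of the same stage they correlated by 0.063 at passage 2, 0.194 at passage 4 and -0.047 at D28. Whether same-numbered samples of a stage were handled together cannot be told from these values. With the replicate number as a block, 6 pathway genes were called at passage 2, 24 at passage 4 and 27 at D28.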
